A study of Mus musculus with 9 samples.

Results

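Transcripts of the intestinal epithelium were followed on 9 microarrays of sorted regulatory T cells (Tregs). The set held 40 genes chosen by symbol as genes of enterocytes, goblet cells, Paneth cells and colonocytes, out of 22180 genes with a feature of their own on the array. A feature counted for a gene where the platform annotation gave it exactly 1 gene symbol, and the brightest such feature was kept. All 40 genes had such a feature. By role, 18 are expressed along the whole epithelium, 12 mark the small bowel, 5 the colon and 5 goblet cells.

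The cells came from lamina propria of small and large bowel, not kept apart, in mice labelled C57BL/6 with a red fluorescent protein linked to Foxp3, on which the Tregs were sorted. There were 3 genotypes with 3 arrays each. WT is labelled wild type. Y3 is not described further in the labels, though IL-2Rβ, the β chain of the receptors for IL-2 and IL-15, is named in the title. Y3/CD103-/- carries Y3 together with loss of CD103, the αE integrin chain, and no group lacked CD103 alone. The age of the mice, and whether a sample was 1 animal or a pool, are not given in the labels. Every p-value below therefore measures the spread between these arrays, and their number limits the precision.

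The epithelium is a single sheet of cells that covers the lamina propria. Its absorptive cells carry digestive enzymes and lipid-binding proteins in the small bowel and ion and water transporters in the colon. Goblet cells secrete mucus, and Paneth cells, at the base of small bowel crypts, secrete defensins and lysozyme. CD103 pairs with the β7 chain (Itgb7) on T cells and binds E-cadherin (Cdh1) on epithelial cells. None of the 40 genes is a defining gene of Tregs. In a sorted sample, fewer cells of a type and less RNA per cell cannot be told apart, and whether this RNA came from epithelial cells in the sort was not tested.

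The Treg label held on every array. Foxp3 lay between 9.29 and 9.68 (log2 signal), and the largest deviation of the mean of 18 Treg and T cell genes from its average was -0.12. Itgae, which encodes CD103, lay at 6.05 to 6.86 in Y3/CD103-/-, below the 7.85 to 8.06 of WT and the 9.11 to 9.51 of Y3. Y3 arrays 1 and 3 had a wider spread of values over all features (SD 1.87 and 1.88) than the other 7 arrays (1.70 to 1.77). Of the 40 epithelial genes, 24 exceeded the median of their array on all 9 arrays. A gene was tested where it did so on at least 3 arrays, which 36 of the 40 did. Guca2b, Fabp1 and Sis exceeded it on 2 arrays, Aqp8 on 0, and these 4 are given as values. Slc26a3 and Olfm4 would not have been tested without their WT arrays: Slc26a3 exceeded the median on 3 WT arrays, 1 Y3 array and 0 of Y3/CD103-/-, and Olfm4 on 2, 0 and 2.

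The epithelial genes shared a pattern across the arrays that ran across replicates as well as genotypes. Each gene was set against its own mean over the 9 arrays, and these deviations were averaged over the 40 genes. The mean deviation was 0.54, 1.34 and 0.18 log2 on WT arrays 1, 2 and 3. It was -0.12, -0.80 and -0.40 on the Y3 arrays, and 0.72, -0.56 and -0.91 on the Y3/CD103-/- arrays. All 3 WT arrays lay above all 3 Y3 arrays. The Y3/CD103-/- arrays ran from the lowest value of the 9 to above WT arrays 1 and 3, but below WT array 2. WT array 2 was the highest of the 9 for 25 of the 40 genes (12.6% of all genes) and Y3/CD103-/- array 1 for 9 (11.8%). Y3/CD103-/- array 3 was the lowest for 16 genes and Y3 array 2 for 15 (8.26% and 8.62% of all genes). WT array 2 and Y3/CD103-/- array 1 were the 2 highest arrays for 23 genes.

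**Figure D1:**
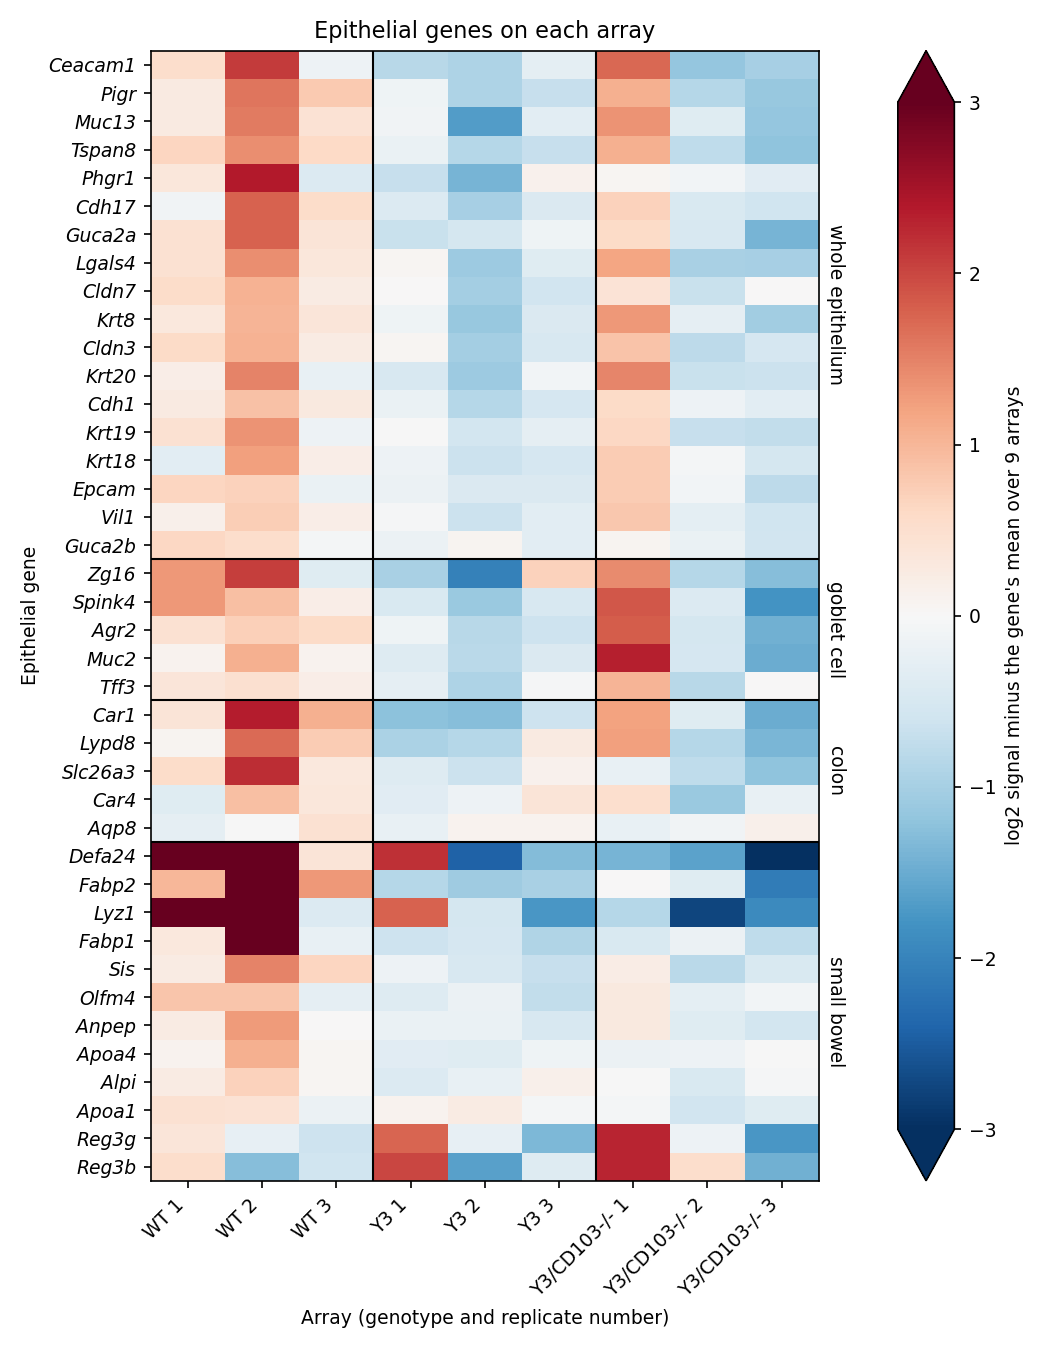
Deviation of each of the 40 epithelial genes (rows, by role) from its own mean over 9 arrays, in log2 units by colour, on each array (columns, by genotype and replicate number); values past 3 in either direction take the end colour. WT array 2 and Y3/CD103-/- array 1 are the reddest columns, with mean deviations of 1.34 and 0.72, and Y3/CD103-/- array 3 and Y3 array 2 the bluest, at -0.91 and -0.80.

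Replicates of 1 genotype differed more in these genes than in others. The median SD over the 3 arrays of a group for the epithelial genes was 0.90 log2 in Y3/CD103-/-, 0.63 in WT and 0.35 in Y3. In the same order it was 0.24, 0.27 and 0.19 for all genes and 0.08, 0.09 and 0.14 for the 18 Treg and T cell genes. For 23 macrophage, monocyte and dendritic cell genes it was 0.31, 0.35 and 0.20, also above all genes but below the epithelial genes. Y3/CD103-/- array 1 lay above both of its replicates for 37 of the 40 genes, where 32.5% of all genes did, by a median of 1.29 log2 over the mean of the other 2. Its excess was largest in Muc2 (3.32), the Reg3 lectin Reg3g (3.24) and Spink4 (2.95), and it was near or below 0 in Fabp1, Apoa4 and Aqp8 (0.0040, -0.10 and -0.25). WT array 2 lay above both of its replicates for 31 genes (33.1% of all genes), by a median of 0.99. Since these 2 arrays stand apart, the main results are given below with and without them. Both were picked on the values of these same genes. Leaving out either therefore moves the differences in a direction set in advance, and the results without them only describe how much rests on them.

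In Y3 against WT, 38 of the 40 genes had a negative difference, where 47.4% of all genes did, and the median was -1.12 log2 against 0.02 over all genes. The median over the tested genes alone was 0.15 for all genes, on the other side of 0 from the epithelial genes. With limma, 0 of the 36 tested genes passed an adjusted p of 0.05 (Benjamini-Hochberg over 12792 genes), where 0.172% of the tested genes passed lower and 0.618% higher. At an unadjusted p under 0.05, 19 were lower and 0 higher (3.6% and 13.4% of all tested genes). For 23 of the 40, all 3 Y3 arrays lay below all 3 WT arrays, where 8.96% of all genes did, and for 0 the reverse (12.1%). Without WT array 2 the median was -0.77, again with 38 lower. Leaving out the low Y3 array 2 instead gave -0.89, also with 38 lower.

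In Y3/CD103-/- against WT, 38 genes again had a negative difference (49.4% of all genes), with a median of -0.74 log2. The count passed by limma was 0, against 0.281% of all tested genes lower and 0.555% higher. At an unadjusted p under 0.05, 11 were lower and 0 higher (5.35% and 7.9% of all). The groups did not overlap for 7 genes, all lower (6.55% of all genes lower and 7.88% higher). Without Y3/CD103-/- array 1 all 40 were lower, the median was -1.27, and 31 did not overlap (11.2% of all genes). Since that array was picked on the 40 genes, their count and the share of all genes are not a like comparison. Without WT array 2 the median was -0.41 with 35 lower, and without both arrays -0.84 with 40 lower. Leaving out the low Y3/CD103-/- array 3 instead gave -0.57 with 36 lower.

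In Y3/CD103-/- against Y3 the difference was positive for 32 genes and negative for 8 (51.8% of all genes negative), with a median of 0.29 log2. The limma test passed 0 of them, where 0.00782% of all tested genes passed lower and 0% higher, and 0 had an unadjusted p under 0.05 (8.12% and 1.78% of all). The groups overlapped for every 1 of the 40 (9.49% of all genes lay lower without overlap and 7.49% higher). Without Y3/CD103-/- array 1 the sign of the median turned, to -0.22, with 30 genes lower. The 3 comparisons share their groups: both differences from WT use the same WT arrays, and this 1 uses arrays of both others.

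**Figure D2:**
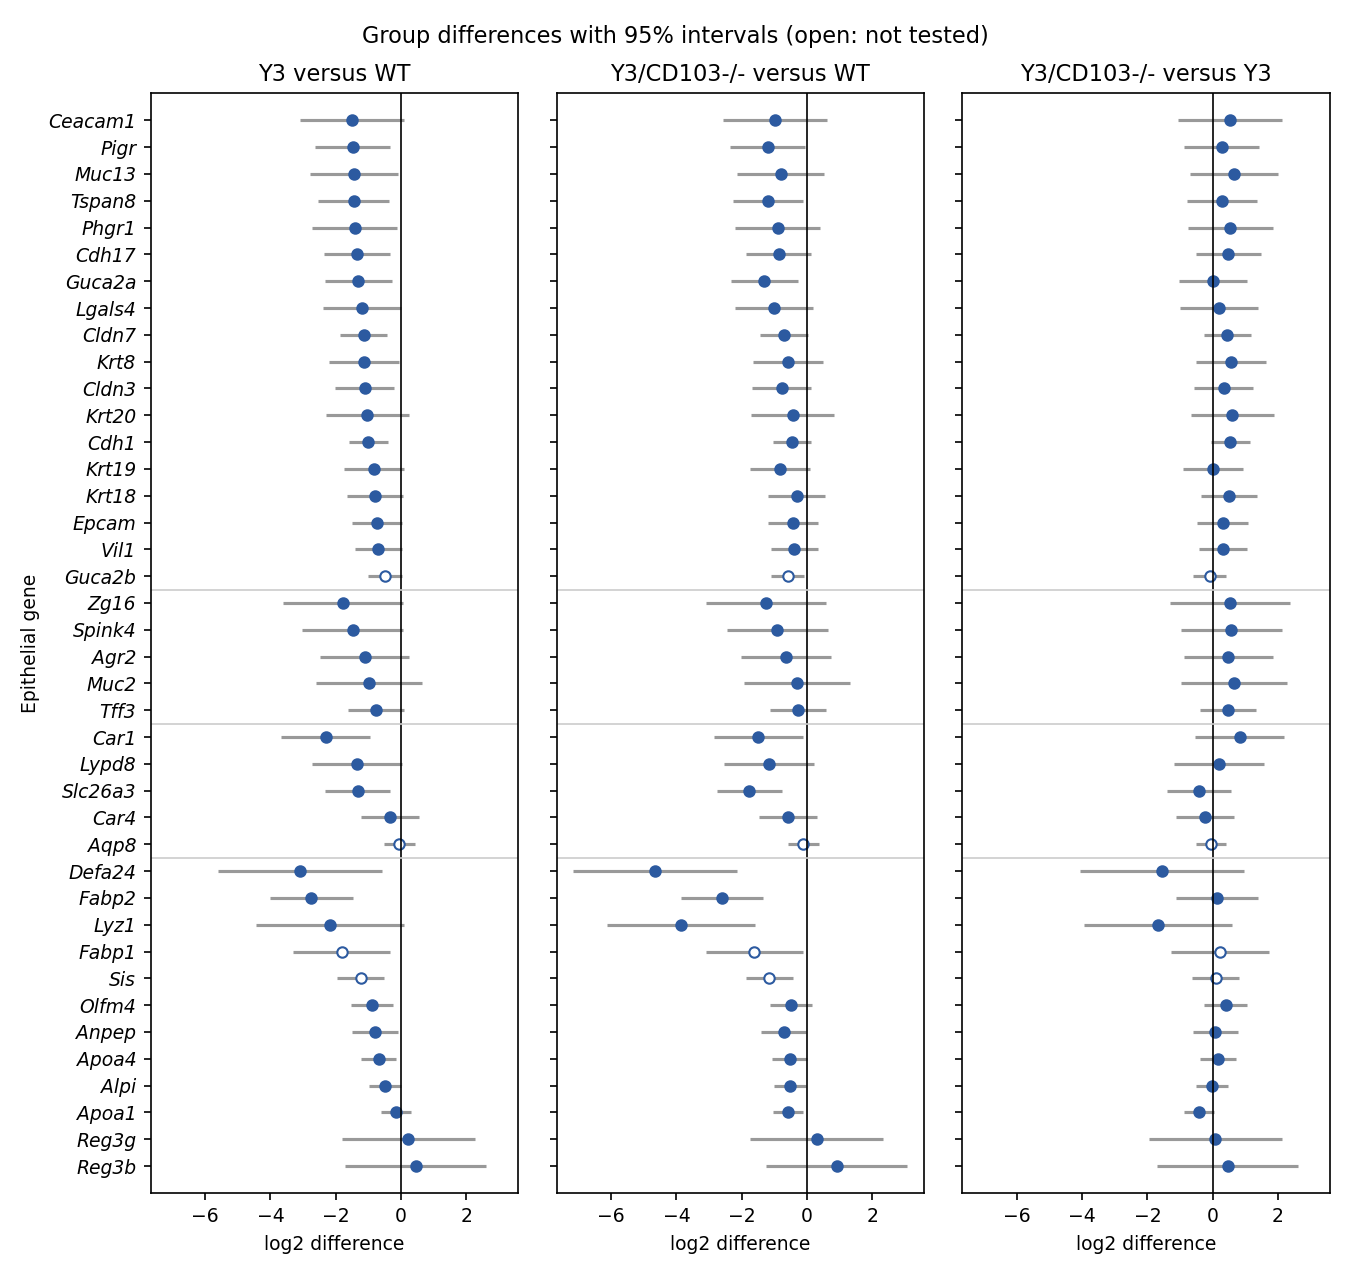
Log2 difference between groups (points) with its 95% interval from limma (lines) for each epithelial gene, by role and comparison; open points are the 4 genes that were not tested, whose intervals come from the fit to all genes. Most points lie left of 0 in both differences from WT (medians -1.12 and -0.74) and near 0 between the Y3 genotypes (median 0.29).

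Among the genes of the whole epithelium, all 18 lay lower in Y3 than in WT (median -1.14, from -1.51 to -0.49) and all 18 in Y3/CD103-/- (median -0.79, from -1.30 to -0.31). The groups did not overlap for 12 of them in Y3 and for 0 in Y3/CD103-/- (8.96% and 6.55% of all genes lay lower without overlap). The latter count includes Y3/CD103-/- array 1, where these 18 genes had a mean deviation of 0.85. Between the Y3 genotypes 17 were higher in Y3/CD103-/-, with a median of 0.39. They include adhesion and junction proteins, keratins and surface proteins that enterocytes and goblet cells share.

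Cdh1 encodes E-cadherin, the epithelial ligand of CD103. It stood at 5.21, 5.84 and 5.25 (log2 signal) on the WT arrays, 4.74, 4.10 and 4.45 on the Y3 arrays, and 5.51, 4.80 and 4.62 on the Y3/CD103-/- arrays. All Y3 arrays lay below all WT arrays, and the Y3/CD103-/- arrays overlapped both groups. The difference in Y3 was -1.0 ± 0.27 (SE; limma adjusted p = 0.112), and in Y3/CD103-/- it was -0.46 ± 0.27 (adjusted p = 0.508). A second, dimmer Cdh1 feature gave -0.99 and -0.88. The β7 chain gene Itgb7, a gene of the T cells themselves, differed by 0.19 in Y3 (limma adjusted p = 0.585).

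The other adhesion and junction genes differed among themselves in the order of the arrays. Cldn7, a tight junction claudin, stood at 4.30, 4.80 and 3.99 in WT, 3.76, 2.73 and 3.17 in Y3, and 4.16, 3.08 and 3.75 in Y3/CD103-/-. Its Y3 arrays lay below its WT arrays, by -1.14 ± 0.33 (limma adjusted p = 0.132). Cldn3, another claudin, differed by -1.11 ± 0.41 in Y3 and -0.77 ± 0.41 in Y3/CD103-/-. Cdh17, an intestinal cadherin, differed by -1.35 ± 0.45 and -0.87 ± 0.45. The adhesion molecule Epcam, often used to gate epithelial cells, stood at 5.28, 5.34 and 4.45 in WT, 4.45, 4.21 and 4.21 in Y3, and 5.39, 4.56 and 3.85 in Y3/CD103-/-. WT array 3 and Y3 array 1 were level in Epcam, and the Y3/CD103-/- arrays held both its highest and its lowest value.

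The keratins form the intermediate filaments of simple epithelia. Krt19 lay nearest of the 36 tested genes to the mean profile of the set, at a root-mean-square distance of 0.17 log2 over the 9 arrays. It stood at 5.17, 6.08 and 4.57 in WT, 4.71, 4.17 and 4.46 in Y3, and 5.34, 4.03 and 3.98 in Y3/CD103-/-. The groups overlapped, and its difference was -0.83 ± 0.41 in Y3 and -0.82 ± 0.41 in Y3/CD103-/- (limma adjusted p = 0.332 and 0.429). Krt8 reached 7.66 on Y3/CD103-/- array 1, above its 3 WT arrays at 6.68, 7.39 and 6.73, and the Y3 arrays lay at 5.23 to 6.23. Krt18, the partner of Krt8, differed by -0.80 in Y3 and -0.31 in Y3/CD103-/-, and Krt20, a keratin of mature surface cells, by -1.04 and -0.44. Without WT array 2 both differences of Y3/CD103-/- were positive (0.11 and 0.066). A dimmer Krt18 feature had its lowest value of all, 2.48, on WT array 3, where the brighter 1 stood at 5.06.

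Surface, brush border and secreted products of the whole epithelium had lower values in Y3 too, none of which passed. Tspan8, a tetraspanin, stood at 5.32, 6.07 and 5.26 in WT, 4.48, 3.82 and 3.99 in Y3, and 5.74, 3.90 and 3.45 in Y3/CD103-/-. Y3 lay wholly below WT, and so did Y3/CD103-/- arrays 2 and 3, while array 1 lay among the WT arrays. The difference was -1.45 ± 0.49 in Y3 and -1.18 ± 0.49 in Y3/CD103-/- (limma adjusted p = 0.187 and 0.323). Leaving out Y3/CD103-/- array 1, Tspan8 passed in both, at limma adjusted p = 0.0433 and 0.0360. That array was picked on the values of the set. It is in neither group of Y3 against WT, where the difference stayed at -1.45 and only the shared estimate of the spread changed. With another array left out Tspan8 passed in neither, and limma adjusted p ran up to 0.477 and 0.593.

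Pigr, the receptor that carries IgA across the epithelium, stood at 5.02, 6.35 and 5.53 in WT, 4.62, 3.80 and 4.04 in Y3, and 5.80, 3.88 and 3.60 in Y3/CD103-/-. Its Y3 arrays were all below its WT arrays, at -1.48 ± 0.52 (limma adjusted p = 0.202). Guca2a, which encodes the peptide hormone guanylin, differed by -1.31 ± 0.47 in Y3 and -1.30 ± 0.47 in Y3/CD103-/-. Its relative Guca2b (uroguanylin), which was not tested, lay at 2.98 to 3.64 in WT, 2.71 to 3.11 in Y3 and 2.44 to 3.11 in Y3/CD103-/-. The transmembrane mucin Muc13 differed by -1.45 ± 0.61 in Y3, the galectin Lgals4 by -1.20 ± 0.54 and Phgr1 by -1.42 ± 0.59. Vil1, which encodes villin of the brush border, differed by -0.70 ± 0.33 and had its highest value, 4.90, on Y3/CD103-/- array 1. Ceacam1, an adhesion molecule that leukocytes can also express, differed by -1.51 ± 0.72.

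The 12 small bowel genes did not move as 1 block. They divide into 7 absorptive genes, 2 Paneth cell genes, 2 Reg3 lectins and the crypt gene Olfm4, a split made after their values were seen. All 7 absorptive genes lay lower in both Y3 genotypes, with medians of -0.80 in Y3 and -0.72 in Y3/CD103-/-. Their mean deviation was 0.37, 1.62 and 0.24 in WT, -0.35, -0.38 and -0.44 in Y3 and -0.03, -0.42 and -0.61 on the Y3/CD103-/- arrays. Every WT array lay above every array of the other genotypes here, Y3/CD103-/- array 1 included.

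Fabp2, the intestinal fatty acid-binding protein of enterocytes, came nearest to passing. It stood at 5.87, 7.93 and 6.16 in WT, 4.03, 3.79 and 3.91 in Y3, and 4.87, 4.50 and 2.78 in Y3/CD103-/-. All 6 arrays of the Y3 genotypes lay below all 3 WT arrays, and the Y3 arrays were close to each other (SD 0.12, n = 3). It was 6.70-fold lower in Y3 (log2 -2.74 ± 0.57, 95% interval -4.00 to -1.48, limma adjusted p = 0.0557). In Y3/CD103-/- it was 6.08-fold lower (-2.60 ± 0.57, limma adjusted p = 0.0669), and between the Y3 genotypes the difference was 0.14 (95% interval -1.12 to 1.40), a sign that turned without Y3/CD103-/- array 1 (-0.27) or array 2 (-0.084). Without WT array 1 or Y3/CD103-/- array 3 the difference in Y3 passed, at limma adjusted p = 0.0498 and 0.0271. Without WT array 2, Y3 array 2 or Y3 array 3 it moved away from passing, at limma adjusted p = 0.106, 0.132 and 0.234.

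The liver-type relative Fabp1 stood at 6.58 on WT array 2 and between 2.35 and 3.56 on the other 8 arrays, and was not tested. Sis, the sucrase-isomaltase of the brush border, was also not tested, with 2.98, 4.20 and 3.38 in WT, 2.57, 2.23 and 2.04 in Y3, and 2.93, 1.91 and 2.27 in Y3/CD103-/-. All WT arrays of Sis lay above the other 6. The apolipoprotein genes Apoa4 and Apoa1 differed by -0.69 ± 0.24 and -0.15 ± 0.21 in Y3, and by -0.52 ± 0.24 and -0.58 ± 0.21 in Y3/CD103-/-. Alpi, the intestinal alkaline phosphatase, differed by -0.49 ± 0.22 and -0.51 ± 0.22, and Anpep, aminopeptidase N, by -0.80 ± 0.32 and -0.72 ± 0.32. The limma adjusted p of these 4 ranged from 0.206 to 0.748.

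The Paneth cell genes had the widest swings of the set. Defa24, an α-defensin, stood at 9.81, 9.53 and 6.38 in WT, 8.18, 3.58 and 4.69 in Y3, and 4.60, 4.39 and 2.80 in Y3/CD103-/-. WT arrays 1 and 2 and Y3 array 1 were high, and the Y3/CD103-/- arrays all lay below the WT arrays. The difference was -3.09 ± 1.14 in Y3 (limma adjusted p = 0.217) and -4.65 ± 1.14, or 25.1-fold, in Y3/CD103-/- (95% interval -7.16 to -2.14, limma adjusted p = 0.0940). Without Y3 array 1 the latter passed, at limma adjusted p = 0.0475. That array is in neither group of this comparison, and the difference stayed at -4.65 while the shared estimate of the spread changed. With another array left out the latter did not pass, with limma adjusted p up to 0.233. Defa24 lay farthest of the 36 tested genes from the mean profile of the set, at a distance of 1.98 log2. The α-defensin genes are close copies of each other, so that their features may share signal.

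Lyz1, the Paneth cell lysozyme, stood at 8.64, 8.53 and 4.94 in WT, 7.12, 4.84 and 3.61 in Y3, and 4.49, 2.60 and 3.45 in Y3/CD103-/-. The same 3 arrays were high as for Defa24, and Y3/CD103-/- lay wholly below WT. The difference was -2.18 ± 1.03 in Y3 and -3.86 ± 1.03 in Y3/CD103-/- (limma adjusted p = 0.311 and 0.123), and the latter passed without WT array 3 (limma adjusted p = 0.0442). WT array 3 is the lowest WT array for Lyz1. With another array left out, Lyz1 in Y3/CD103-/- did not pass, with limma adjusted p up to 0.288. Lyz2, its near-identical copy in macrophages, did not share these high arrays, with 5.45, 5.90 and 5.50 in WT, 4.91, 5.62 and 5.09 in Y3, and 5.92, 5.30 and 6.24 in Y3/CD103-/-.

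Other Paneth cell genes outside the 40, picked from the list of goblet and Paneth cell genes after values were seen, had the same high arrays. The α-defensins among them may share signal with Defa24 and are no independent reading. Over 7 of them (Defa21, Defa22, Defa26, Itln1, Ang4, Mptx2 and Mmp7) the mean deviation was 2.61, 2.05 and -0.57 in WT, 1.51, -0.77 and -1.61 in Y3, and -0.35, -1.57 and -1.31 in Y3/CD103-/-. Defa22 ranged from 9.29 on WT array 2 to 1.86 on Y3/CD103-/- array 3. All 7 had a negative difference from WT in both Y3 genotypes, and the smallest limma adjusted p was that of Itln1 in Y3/CD103-/-, at 0.0672. As the 7 were picked with values known, their common direction is no separate result. Over the whole list, 19 genes had a feature, of which 15 were lower in Y3 and 12 in Y3/CD103-/- (47.4% and 49.4% of all genes). The WT arrays differed among themselves, with Defa22 at 9.18, 9.29 and 3.99.

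**Figure D3:**
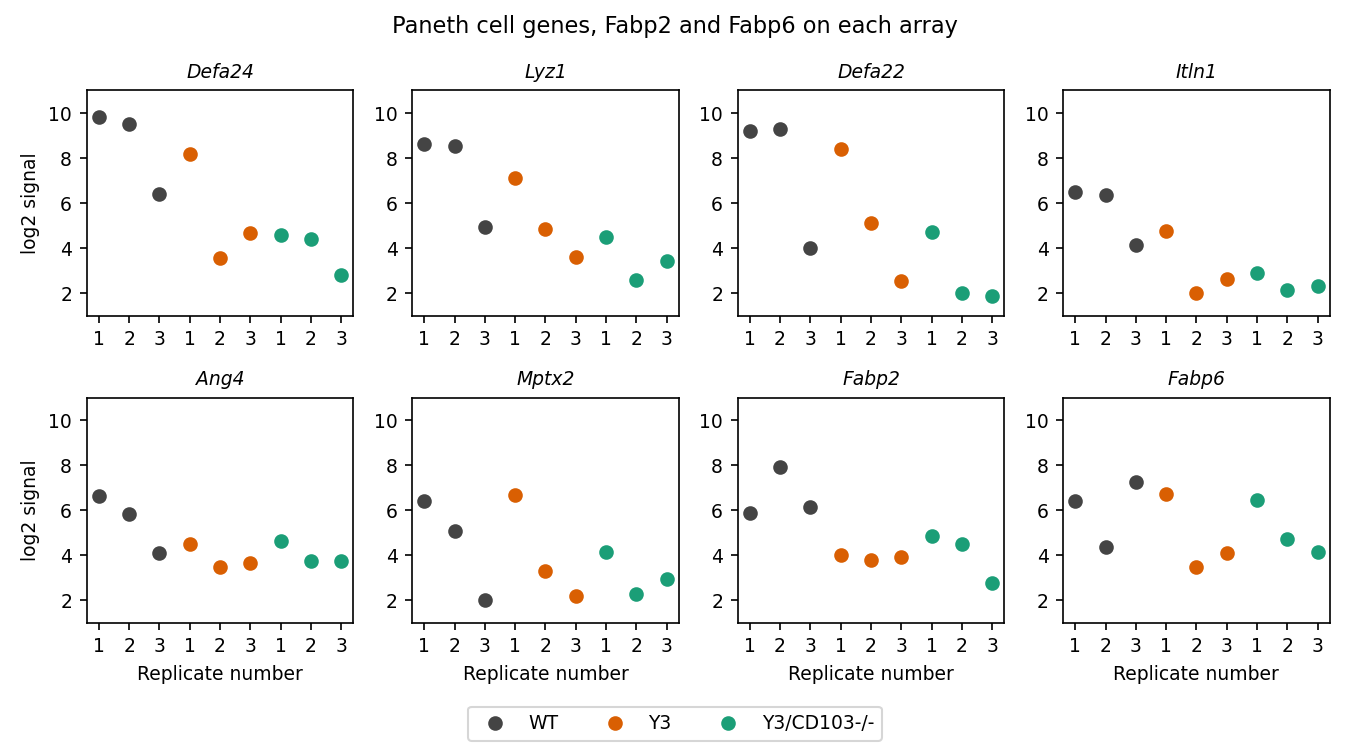
Log2 signal (vertical axes) of 6 Paneth cell genes, of Fabp2 and of the ileal gene Fabp6 on each array, by replicate number (horizontal axes) and genotype (colour). WT arrays 1 and 2 and Y3 array 1 are high in the Paneth cell genes (Defa24 at 9.81, 9.53 and 8.18), whereas Fabp2 is at 5.87, 7.93 and 6.16 on the WT arrays and at most 4.87 on the others.

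The Reg3 lectins, which bind and kill gut bacteria, were the 2 genes of the 40 with a positive difference from WT in both Y3 genotypes. Reg3b stood at 6.72, 4.91 and 5.60 in WT, 8.21, 4.57 and 5.81 in Y3, and 8.48, 6.71 and 4.76 in Y3/CD103-/-. Reg3g stood at 5.13, 4.51 and 4.14 in WT, 6.50, 4.51 and 3.43 in Y3, and 7.05, 4.60 and 3.02 in Y3/CD103-/-. In both genes array 1 of each genotype was the highest of its group, most of all in the Y3 genotypes, and the groups overlapped. The differences were 0.45 ± 0.98 and 0.22 ± 0.92 in Y3, and 0.91 ± 0.98 and 0.30 ± 0.92 in Y3/CD103-/- (limma adjusted p from 0.745 to 0.924). Without Y3 array 1 both differences of Y3 from WT were negative, at -0.55 and -0.62. Without Y3/CD103-/- array 1 those of Y3/CD103-/- were -0.0047 for Reg3b and -0.78 for Reg3g.

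Olfm4, a glycoprotein gene of crypt base cells, stood at 4.14, 4.14 and 3.04 in WT, 2.94, 3.14 and 2.57 in Y3, and 3.61, 3.03 and 3.22 in Y3/CD103-/-. WT arrays 1 and 2 lay above the rest and array 3 among them, with a difference of -0.89 ± 0.30 in Y3 (limma adjusted p = 0.183). Fabp6, the bile acid-binding protein of the ileum and no member of the set, followed yet another order. It stood at 6.40, 4.35 and 7.24 in WT, 6.70, 3.47 and 4.11 in Y3, and 6.47, 4.74 and 4.14 in Y3/CD103-/-.

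The 5 colon genes were lower in both Y3 genotypes, with medians of -1.33 in Y3 and -1.17 in Y3/CD103-/-. Car1, a carbonic anhydrase, stood at 7.65, 9.63 and 8.33 in WT, 6.03, 6.00 and 6.65 in Y3, and 8.47, 6.90 and 5.78 in Y3/CD103-/-. All Y3 arrays lay below the lowest WT array, and Y3/CD103-/- array 1 lay within the WT range. The difference in Y3 was -2.31 ± 0.62, or 4.95-fold (limma adjusted p = 0.112), and in Y3/CD103-/- -1.48 ± 0.62 (limma adjusted p = 0.328).

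Slc26a3, the chloride-bicarbonate exchanger, stood at 3.84, 5.50 and 3.58 in WT, 2.89, 2.63 and 3.41 in Y3, and 3.05, 2.52 and 2.07 in Y3/CD103-/-. All 6 arrays of the Y3 genotypes lay below the WT arrays, by -1.33 ± 0.45 in Y3 and -1.76 ± 0.45 in Y3/CD103-/- (limma adjusted p = 0.187 and 0.105). Lypd8, a protein that keeps flagellated bacteria from the colonic surface, stood at 7.01, 8.63 and 7.70 in WT, 5.97, 6.09 and 7.20 in Y3, and 8.17, 6.09 and 5.55 in Y3/CD103-/-. Its groups overlapped, with differences of -1.36 ± 0.63 and -1.17 ± 0.63. Car4, a membrane-bound carbonic anhydrase, differed by -0.33 ± 0.41 and -0.57 ± 0.41. The water channel gene Aqp8 lay between 2.31 and 3.03 on all arrays and was not tested.

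The small bowel and colon genes were then set against each other within each array, as the mean deviation of the 12 minus that of the 5. This balance was 0.88, 0.01 and -0.58 log2 on WT arrays 1, 2 and 3. It was 1.03, -0.08 and -0.77 on the Y3 arrays, and -0.30, 0.04 and -0.23 on the Y3/CD103-/- arrays. WT and Y3 each held a high, a middle and a low array, and Y3/CD103-/- lay inside their range. The group means differed by -0.04 in Y3 and -0.27 in Y3/CD103-/- against WT, and by -0.23 between the Y3 genotypes. With the 7 absorptive genes in place of the 12, the balance on WT array 1 was 0.30 and on Y3 array 1 0.28. On that reading Y3/CD103-/- array 1 was the lowest of the 9, at -0.53, below WT array 3 (-0.35) and Y3 array 3 (-0.49), and the other 4 arrays lay between 0.18 and 0.22.

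The 5 goblet cell genes were lower in Y3, with a median of -1.11, and 4 of them did not overlap with WT (8.96% of all genes lower). Their highest array was Y3/CD103-/- array 1, at a mean deviation of 1.69 against 0.71, 1.04 and 0.14 on the WT arrays. Muc2, the gel-forming mucin, stood at 4.99, 5.95 and 4.99 in WT, 4.50, 4.08 and 4.45 in Y3, and 7.22, 4.39 and 3.41 in Y3/CD103-/-. Array 1 of Y3/CD103-/- exceeded every other array, and arrays 2 and 3 lay below WT. A second Muc2 feature also had its highest value, 6.94, on that array and its lowest, 3.38, on array 3, but its array 2 (4.61) lay above WT array 3 (4.48). The difference was -0.97 ± 0.74 in Y3 and -0.30 ± 0.74 in Y3/CD103-/- (limma adjusted p = 0.523 and 0.901), the latter turning positive without WT array 2 (0.016) or without Y3/CD103-/- array 2 (0.0036) or 3 (0.50).

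Agr2, a disulfide isomerase needed for mucin folding, stood at 5.40, 5.64 and 5.51 in WT, 4.79, 4.10 and 4.31 in Y3, and 6.75, 4.41 and 3.48 in Y3/CD103-/-. The WT arrays were close together (SD 0.12, n = 3) and above all Y3 arrays, and the Y3/CD103-/- arrays lay to both sides. Spink4, a small protease inhibitor-like peptide, differed by -1.48 ± 0.70 in Y3 and -0.91 ± 0.70 in Y3/CD103-/-, Zg16, a mucus lectin, by -1.77 ± 0.83 and -1.24 ± 0.83, and Tff3, a trefoil peptide that protects the mucosa, by -0.76 ± 0.39 and -0.28 ± 0.39. The limma adjusted p of these 3 ranged from 0.309 to 0.807. The differences of Agr2 and Tff3 in Y3/CD103-/- turned positive without array 3 (0.064) and array 2 (0.17) of that genotype.

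**Figure D4:**
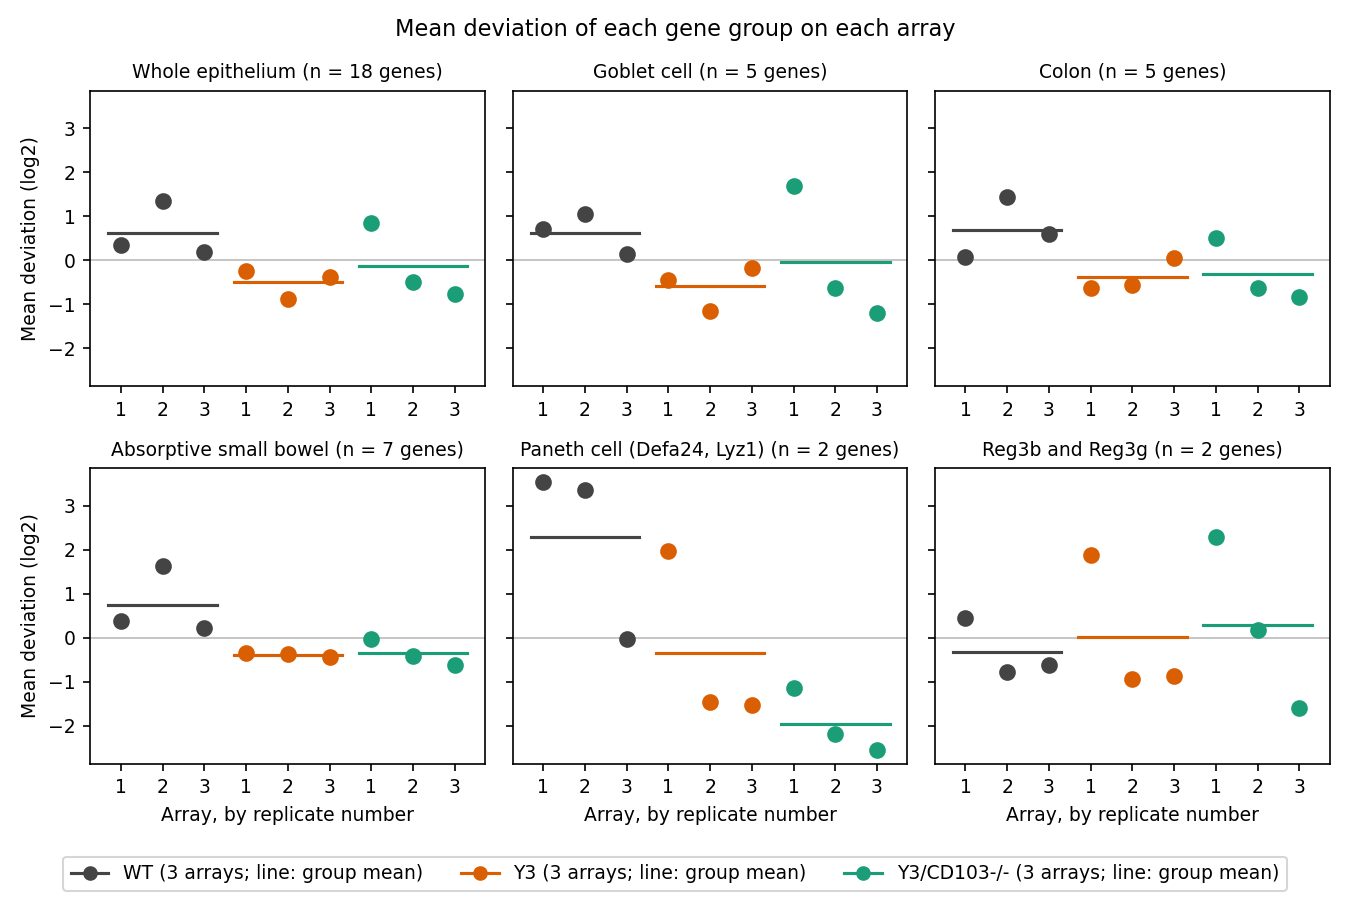
Mean deviation from each gene's own mean (log2, vertical axes) for 6 groups of the epithelial genes on each array (points, by replicate number and genotype), with the mean of each genotype as a line; Olfm4 is in none of the panels. Goblet cell genes peak on Y3/CD103-/- array 1 at 1.69, absorptive small bowel genes on WT array 2 at 1.62, Paneth cell genes on WT array 1 at 3.55 and the Reg3 lectins on Y3/CD103-/- array 1 at 2.28.

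Promoter windows of the RefSeq annotation (assembly GRCm38.p6) were looked up for the set, from 250 bases before to 50 bases after each annotated start, and 32 of the 40 genes had 35 windows. The windows shown are those of the genes on which the results above turn: Tspan8 for the whole epithelium, Fabp2 for the absorptive cells, Lyz1 for Paneth cells and the Reg3 pair. They lie at chr10:115817034-115817333 (Tspan8, plus strand), chr3:122894822-122895121 (Fabp2, plus), chr10:117292819-117293118 (Lyz1, minus), chr6:78370635-78370934 (Reg3b, plus) and chr6:78468825-78469124 (Reg3g, minus). Capitals mark exact matches, on either strand, to 6 short motifs, and everything else is in lower case.
Tspan8: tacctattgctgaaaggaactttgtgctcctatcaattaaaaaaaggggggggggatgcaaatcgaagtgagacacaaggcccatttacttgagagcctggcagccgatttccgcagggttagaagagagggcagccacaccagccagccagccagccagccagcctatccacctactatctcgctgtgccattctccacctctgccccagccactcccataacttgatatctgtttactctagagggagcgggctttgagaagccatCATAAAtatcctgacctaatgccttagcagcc
Fabp2: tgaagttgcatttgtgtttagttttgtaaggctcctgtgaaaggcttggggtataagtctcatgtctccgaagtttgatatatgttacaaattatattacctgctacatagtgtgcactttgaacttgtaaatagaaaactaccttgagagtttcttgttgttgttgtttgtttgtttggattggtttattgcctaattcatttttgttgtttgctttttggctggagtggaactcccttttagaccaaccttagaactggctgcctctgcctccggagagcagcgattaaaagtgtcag
Lyz1: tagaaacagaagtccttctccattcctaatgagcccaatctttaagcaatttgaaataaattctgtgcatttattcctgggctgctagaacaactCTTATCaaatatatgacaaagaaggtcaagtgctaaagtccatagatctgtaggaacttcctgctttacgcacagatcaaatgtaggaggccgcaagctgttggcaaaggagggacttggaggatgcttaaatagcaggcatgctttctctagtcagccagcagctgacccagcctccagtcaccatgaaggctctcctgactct
Reg3b: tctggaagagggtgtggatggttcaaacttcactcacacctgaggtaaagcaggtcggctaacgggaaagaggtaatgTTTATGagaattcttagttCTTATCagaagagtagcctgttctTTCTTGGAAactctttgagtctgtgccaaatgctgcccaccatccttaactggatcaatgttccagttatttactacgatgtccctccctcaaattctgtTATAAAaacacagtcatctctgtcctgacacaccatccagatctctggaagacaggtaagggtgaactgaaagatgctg
Reg3g: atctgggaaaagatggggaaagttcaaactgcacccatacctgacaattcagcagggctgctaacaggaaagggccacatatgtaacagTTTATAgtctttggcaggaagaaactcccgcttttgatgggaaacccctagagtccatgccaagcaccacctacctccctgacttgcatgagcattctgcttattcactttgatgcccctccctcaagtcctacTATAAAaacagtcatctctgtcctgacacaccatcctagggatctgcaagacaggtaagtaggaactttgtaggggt

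The TATA box was searched for as TATAAA and sites of CDX factors, regulators of gut identity, as TTTATG. Sites of HNF4 were searched for as CAAAGTCCA, of HNF1 as GTTAAT, of the GATA family as the letters GATAAG, and of STAT factors as TTCNNNGAA. Others had been looked at before these were kept, so their shares are a description with no test. On the reverse strand the CDX letters read CATAAA, which resembles the TATA box, and matches to the 2 can overlap. TATAAA was in 10 of the 35 windows (28.6%) and in 13.6% of the 32851 windows of all genes. TTTATG was in 8 (22.9% against 11.9%), GTTAAT in 7 (20.0% against 7.1%), TTCNNNGAA in 6 (17.1% against 8.3%), GATAAG in 5 (14.3% against 7.44%) and CAAAGTCCA in 2 (5.71% against 0.475%).

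Tspan8 held a CDX match close to its start, Lyz1 a GATA match and Fabp2 none of the 6. The Reg3b window held a TATA box with CDX, GATA and STAT matches, and the Reg3g window TATAAA at 2 places. Aligned to each other, the Reg3b and Reg3g windows were identical at 210 of 294 aligned positions (71.4%), with 12 gap positions. The 2 genes lie on the same chromosome, and, as relatives of 1 family, their features may share signal.

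In lists of other epithelial genes the median differences were smaller. Their features were also dimmer, with a mean level in WT of 3.63 log2 against 5.38 for the 40 genes. Whether the dimmer signal made the differences smaller was not tested. Of 136 such genes in 7 lists, 124 had a feature and 81 were tested. In Y3 against WT, 86 of the 124 were lower (47.4% of all genes), with a median of -0.23 log2, and limma passed 2 higher and 2 lower (0.618% and 0.172% of all tested genes). In Y3/CD103-/- against WT, 80 were lower (49.4% of all genes), with a median of -0.15, and 1 passed in each direction (0.555% of all tested genes higher, 0.281% lower). Between the Y3 genotypes 0 passed. At an unadjusted p under 0.05 the last comparison had 3 genes above and 3 below (1.78% and 8.12% of all tested genes). The list of goblet and Paneth cell genes had the largest median, at -0.45 in Y3 and -0.54 in Y3/CD103-/-. Its brightest genes were Sytl2, Defa21 and Defa22.

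Cps1, a urea cycle enzyme that enterocytes also use, was the 1 absorptive gene that passed. It stood at 4.90, 5.20 and 4.51 in WT, 3.98, 3.56 and 3.37 in Y3, and 3.85, 3.43 and 3.30 in Y3/CD103-/-, all 6 of the latter below WT. It fell by 1.23 log2 in Y3 and by 1.35 in Y3/CD103-/- (limma adjusted p = 0.0393 and 0.0259). The call in Y3 was lost when any 1 of 7 of the 9 arrays was left out, all but WT array 3 and Y3/CD103-/- array 1 (limma adjusted p up to 0.210), and that in Y3/CD103-/- without any 1 of 5 (WT arrays 1 and 2, Y3 array 2, and Y3/CD103-/- arrays 2 and 3). Chgb, a granule protein of enteroendocrine cells, fell by 1.46 in Y3 (limma adjusted p = 0.0300). The Y3/CD103-/- arrays gave -1.18, without passing (limma adjusted p = 0.0645). Without WT array 2 or 3, or Y3 array 2 or 3, its call in Y3 was lost (limma adjusted p from 0.0815 to 0.171).

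Against that direction, Tff1, a trefoil peptide best known from the stomach, stood at 3.58, 3.74 and 3.38 in WT, 5.0, 6.13 and 5.70 in Y3, and 5.74, 5.56 and 6.36 in Y3/CD103-/-. All 6 arrays of the Y3 genotypes lay above WT, and Tff1 rose by 2.05 in Y3 and 2.32 in Y3/CD103-/- (limma adjusted p = 0.0119 and 0.00617). Without Y3 array 3 its rise in Y3 did not pass (limma adjusted p = 0.0939). Gfi1b, a repressor of tuft cells and blood cells, rose by 1.20 in Y3 (limma adjusted p = 0.0161), a call lost on leaving out WT array 2 or a Y3 array (0.0571 to 0.0995). Neither followed the array order of the 40 genes: Tff1 was not high on Y3/CD103-/- array 1 relative to its replicates.

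The brightest genes of the remaining lists did not pass. They were Klf5, Isx and Spdef among regulators of the epithelium, Pkp3, Lgals2 and St14 among adhesion and brush border genes, and Muc3, Hsd11b2 and Fxyd4 among further colon genes. They were Slc12a2, Rnf43 and Axin2 in the crypt base list, Gip, Sct and Chga among enteroendocrine and tuft cell genes, and Fabp6 and Ada beside Cps1 in the absorption list. The median difference in Y3 was -0.26 over the regulators, -0.31 over the adhesion genes, -0.25 over the absorption list, -0.07 over the colon list and -0.15 over the enteroendocrine and tuft cell list. In the crypt base list 8 of 10 genes were higher in Y3 (47.4% of all genes lower), with a median of 0.11.

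The genes closest to the array profile of the set were sought among 12675 tested genes in none of the epithelial lists. Likeness was the root-mean-square distance, over the 9 arrays, between a gene's deviations and the mean deviations of the 40. The 12 nearest were F11r (0.20), Oit1, Atp1b1, Ckmt1, Smim22, Spint1, Adgrg7, Tm4sf20, Cd63, Dstn, Anxa2 and Misp (0.33). The median member lay at 0.48 and the median gene at 0.79, and 101 of the 12756 tested genes outside the set lay nearer than the median member. Members are part of the mean they are set against, which by itself draws their distances down. F11r, a tight junction protein, deviated by 0.40, 1.07 and 0.46 in WT, -0.09, -0.62 and -0.58 in Y3, and 0.47, -0.38 and -0.73 in Y3/CD103-/-. Its Y3 arrays lay below its WT arrays and array 1 of Y3/CD103-/- stood among the latter. F11r was chosen for its likeness to the set on these arrays, so sharing that order follows from the choice.

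Genes of further cell types were read on the same arrays, as a sort may carry them too. Macrophage, monocyte and dendritic cell genes (23 with a feature) had mean deviations of -0.05, 0.41 and 0.26 in WT, -0.33, -0.25 and -0.23 in Y3, and 0.10, 0.06 and 0.04 in Y3/CD103-/-. They were lower in Y3 than in WT for 18 of 23 genes (47.4% of all genes lower). Their summed linear signal ran from 783 to 1290.0 in WT, 577 to 668 in Y3 and 738 to 859 in Y3/CD103-/-. Their brightest genes were Ccr2, H2-Ab1 and Cd68, and H2-Aa, an MHC class II chain, fell by 1.80 in Y3 (limma adjusted p = 0.0264, from 0.0602 to 0.124 on leaving out WT array 2 or 3 or a Y3 array). The summed signal of the 40 epithelial genes ran from 1840 to 5054 in WT, 746 to 1705 in Y3 and 676 to 3208 in Y3/CD103-/-. Y3/CD103-/- array 1, high in epithelial genes, was level with its replicates in macrophage genes.

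Genes of intraepithelial T, CD8 and NK cells had mean deviations of -0.47, -0.23 and -0.16 in WT and between 0.08 and 0.25 on the other 6 arrays, with summed signals of 1688 to 1874 in WT and 3999.7 to 4715 in the Y3 genotypes. Of the 17 genes, 11 were higher and 6 lower in each Y3 genotype than in WT (47.4% and 49.4% of all genes lower). In Y3 the lowest difference was -1.09. At an unadjusted p under 0.05, 7 were higher and 2 lower in Y3 (13.4% and 3.6% of all tested genes). In Y3/CD103-/- 6 were higher and 0 lower (7.9% and 5.35%). Of their 14 tested genes, Gzma, Gzmb, Ccl5, Xcl1 and Nkg7 rose in Y3, and all of these but Xcl1 in Y3/CD103-/-. Over all tested genes, 0.618% and 0.555% passed higher. In Y3, Nkg7 and Ccl5 passed with any 1 array left out. Gzma did not pass without Y3 array 1 (limma adjusted p = 0.0815), Gzmb without WT array 2 or 3 or Y3 array 1 or 3 (up to 0.135), and Xcl1 without any 1 of the Y3 arrays (up to 0.0850). B and plasma cell genes (brightest Prdm1, Xbp1 and Jchain) deviated by at most 0.25, and stromal, endothelial and red cell genes (Pecam1, Acta2 and Lyve1) by at most 0.14. Granulocyte and mast cell genes (Kit, Mpo and Prg2) deviated by at most 0.24. Among 18 Treg and T cell genes, led by Cd3e, Ctla4 and Icos, Nrp1 fell in both Y3 genotypes and Il2ra in Y3/CD103-/-, and leaving out 1 array ended the call of Nrp1 in Y3 for 8 arrays (all but WT array 1), that of Nrp1 in Y3/CD103-/- for array 3 of that genotype (limma adjusted p = 0.0510), and that of Il2ra for 8 (all but Y3 array 2). The part of these other cells in the epithelial differences was not tested.

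**Figure D5:**
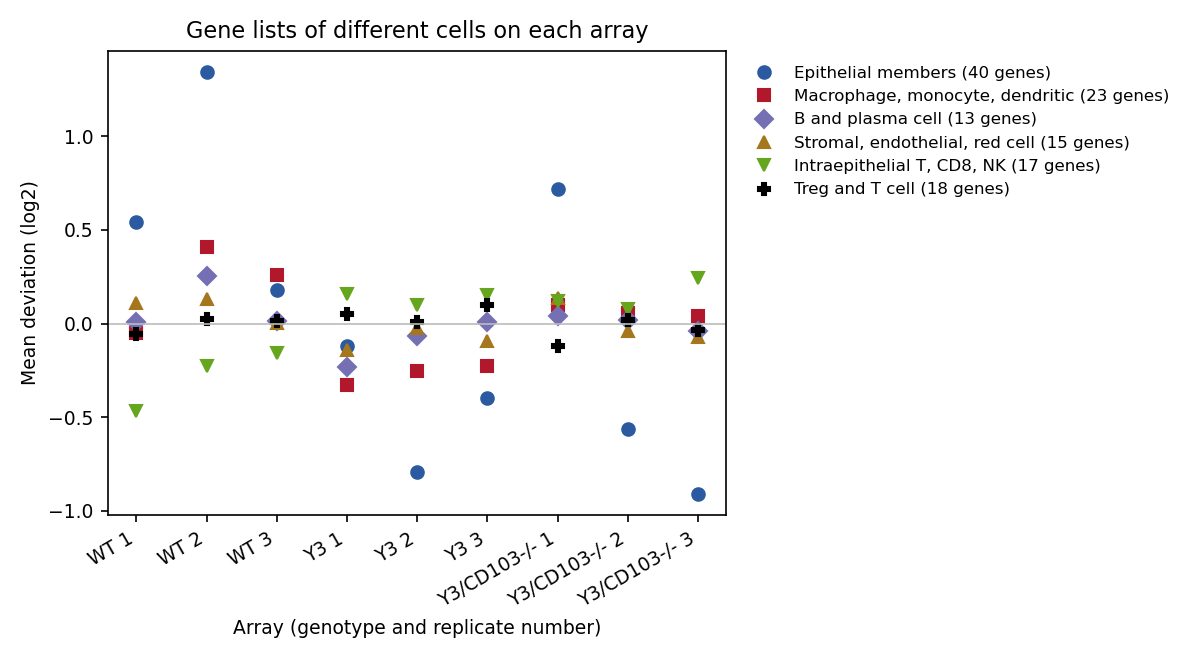
Mean deviation of each gene list from its own mean (log2, vertical axis) on each of the 9 arrays (horizontal axis, genotype and replicate number), 1 marker per list. The epithelial genes run from -0.91 to 1.34, the macrophage list from -0.33 to 0.41 and the Treg and T cell list from -0.12 to 0.10.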

How the data were processed

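RNA of 9 sorted Treg samples was amplified, biotin-labelled and hybridized to Affymetrix mouse Gene ST2.0 arrays, per the labels' protocols. What the authors deposited were log2 signals made with RMA, per the submitters' processing notes. Neither the version of RMA nor a genome build is given in the sources used here. Of 39137 features, 23521 named exactly 1 gene, 1814 several and 13802 none in the platform annotation, and only the first kind was used.

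Of 22180 genes, 12792 exceeded the median of their own array on at least 3 of 9 arrays and were tested. Differences were fitted with limma 3.58.1 (lmFit, eBayes) in R 4.3.3 over all 9 arrays with no block, 2-sided, with Benjamini-Hochberg adjustment over all genes tested within a comparison and a threshold of 0.05. Errors are standard errors from that fit, or standard deviations over 3 arrays where marked. The fit was tested on simulated data. Probes differ in brightness, so a higher signal of 1 gene than another is not read as higher expression; the brightest genes of a list and summed signals only describe the arrays.

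The genes named were all 40 of the set, genes of the other lists that passed, the 3 brightest of each list, and the 12 nearest in profile. The set, the lists and the tests were chosen with earlier results of these data known. The split of the small bowel genes, the choice of further Paneth cell genes and the choice of motifs were made after their values were seen. Same-numbered arrays were not paired: of 9 such pairs across groups, 1 had a correlation of deviations over 0.1 (from -0.04 to 0.11). Alternatives changed the filter, the choice among features of a gene, the scaling, the variance model, the array weights, the arrays in the fit and the replicate block, averaged Y3 arrays 1 and 3, and left out each array in turn.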

Additional observations from a re-analysis of the deposited data

How the results depend on the processing

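The count of epithelial genes passed by limma moved from 0 to 1 under several alternatives. In Y3 against WT it was 1 with a filter on the mean over the arrays (Fabp2, adjusted p = 0.0487), with a trended and robust variance (Cdh1, 0.0498), with array weights (Fabp2, 0.0261) and with only the 6 arrays compared (Fabp2, 0.0492), and 0 to 1 with 1 array left out. In Y3/CD103-/- against WT it was 1 with a trended and robust variance (Slc26a3, limma adjusted p = 0.0458) and 0 to 1 with 1 array left out. Slc26a3 exceeded the array median on 3 WT arrays, 1 Y3 array and 0 of Y3/CD103-/-. It was thus tested only through its WT arrays, where it is high, and its pass is no independent support. Between the Y3 genotypes the count was 0 throughout. With the replicate block the count was 0 in each comparison, with smallest limma adjusted p of 0.0634, 0.0531 and 0.494, and all genes passed fell from 101 to 54, from 107 to 55 and stayed at 1. Counts over all genes ran from 8 to 346, 17 to 309 and 1 to 10 over the alternatives.

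The median difference of the 40 genes ran from -1.31 to -0.77 in Y3 and from -1.27 to -0.41 in Y3/CD103-/- against WT, and from -0.22 to 0.62 between the Y3 genotypes. With Y3 arrays 1 and 3 averaged as 1 sample it was -1.25 in Y3, with 0 genes passed. The small bowel balance kept within the spread of the arrays, from -0.53 to 0.37, -0.61 to 0.12 and -0.64 to 0.26. Of 1701 values of the set's genes under the alternatives, 1670 kept their sign and call. Of 399 values of the 19 results outside the set that passed, 83 lost the call, over 13 results, and 0 changed sign. Beside the losses with 1 array left out, limma adjusted p in Y3 rose with the replicate block to 0.0658 for Chgb, 0.0593 for Gzmb and 0.0976 for Nrp1, and in Y3/CD103-/- to 0.0533 for Il2ra. With only the 6 arrays compared it rose in Y3 to 0.0613 for Cps1, 0.0580 for Chgb, 0.0797 for Nrp1, 0.0515 for Gzmb and 0.0580 for H2-Aa, and in Y3/CD103-/- to 0.0918 for Cps1, 0.111 for Il2ra, 0.0639 for Nrp1 and 0.0630 for Gzmb. With Y3 arrays 1 and 3 averaged, the calls of Cps1, Chgb, Gfi1b, Nrp1, Gzmb, Xcl1 and H2-Aa in Y3 were lost (0.0679 to 0.179), and that of Il2ra in Y3/CD103-/- (0.0502). With no filter, those of Cps1, Chgb, Nrp1 and Gzmb in Y3 (0.0531 to 0.0914) and of Cps1 and Il2ra in Y3/CD103-/- (0.0523 and 0.0636) were lost. Array weights ended those of Cps1 and Il2ra in Y3/CD103-/- (0.0546 and 0.0634), centring on medians (0.0591) or keeping the feature of largest spread per gene (0.0520) that of Nrp1 in Y3, and centring on the Treg and T cell list that of Cps1 in Y3 (0.0509).

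Signs turned for some genes that had not passed. Of Y3 against WT, Aqp8 gave 0.024 with quantile normalization and 0.14 at most with 1 array left out (lowest -0.22), Reg3b -0.55 to 1.26 and Reg3g -0.62 to 0.91 with 1 array left out. Of Y3/CD103-/- against WT, Reg3g gave -0.15 with array weights. With 1 array left out, that comparison gave -0.0047 to 1.85 for Reg3b, -0.78 to 1.23 for Reg3g, -1.41 to 0.50 for Muc2, -0.67 to 0.11 for Krt18, -1.15 to 0.066 for Krt20, -0.76 to 0.17 for Tff3, -1.57 to 0.064 for Agr2 and -0.27 to 0.091 for Aqp8. Between the Y3 genotypes Fabp2 was -0.19 with array weights and -0.27 to 0.78 with 1 array left out. The cause was not tested.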
